A study of Mus musculus with 21 samples.

Results

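The translation initiation and elongation factors are the soluble proteins that load ribosomes onto mRNA and move them along it. They were taken as the rows of the count table whose gene symbol starts with Eif1 to Eif6, Eef1 or Eef2, leaving out Eif2ak2, Eif2s3x and Eif2s3y, which gave 60 of 16318 genes. All 60 passed the low-count filter that left 16303 genes for testing, and the lowest count of any of them in any mouse was 40. They comprised 59 genes that fall into 9 classes by role and 1 pseudogene, Eif4a-ps4.

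Whole-brain RNA was sequenced from 21 mice of the SAMP8 strain, a naturally occurring senescence-accelerated line without a transgene, with 1 library per mouse. HsTX1[R14A], a peptide that blocks the voltage-gated potassium channel Kv1.3, had been given to 9 mice (3 female and 6 male) at 1 mg/kg under the skin on alternate days for 8 weeks, from 4 to 6 months of age. The 12 controls (6 female and 6 male) were SAMP8 mice of the same age that received phosphate-buffered saline (PBS) on the same schedule, and no mice of another strain were among these libraries. The question of the comparison was which brain transcripts differed after chronic Kv1.3 blockade.

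In eukaryotic cells, initiation starts when eIF4E binds the mRNA cap and eIF4G, a long scaffold protein, joins it to the helicase eIF4A and, through eIF3, to the small ribosomal subunit. eIF2 brings the initiator tRNA and is recharged by eIF2B, and stress kinases that phosphorylate eIF2 slow this step throughout the cell. During elongation eEF1A delivers each aminoacyl-tRNA, the eEF1B subunits recharge eEF1A, and eEF2 moves the ribosome forward. In neurons, part of this machinery works in dendrites, where local protein synthesis accompanies synaptic plasticity.

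Elongation factor genes encode short mRNAs that often start with a C followed by a run of pyrimidines, the 5′ terminal oligopyrimidine motif through which mTOR controls their translation. Annotated start regions of 4 called members are shown, from the RefSeq promoter set for GRCm38.p6, with a pyrimidine run near the start in capitals. A run is a C followed by at least 6 further C or T on the gene's strand. It was sought within the window from 20 bases before to 40 bases after the annotated start, and only the part inside the window counts.
Eef1a1, chr9:78481708-78481737, minus strand: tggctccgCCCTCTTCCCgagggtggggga
Eef1a2, chr2:181157006-181157035, minus strand: gtttttCTCTCCTggtctgcgttctcgctc
Eif3k, chr7:28981854-28981883, minus strand: tgaaagcgCCTTTCCCTTTgccttccttgt
Eif3m, chr2:105017018-105017047, minus strand: CTCTCTTTTCCggtcggcgtgtttctggat
Of the 47 members with an entry, 19 (40.4%) held such a run, against 29% of the 27025 genes in the set. The run was present in 7 of 18 members that were lower in treated brains, in 2 of 9 that were higher and in 10 of 20 that did not pass the test. In the 4 shown, the run began at -5 (Eef1a1), -14 (Eef1a2), 13 (Eif3k) and -20 (Eif3m) bases from the annotated start. None of them begins at that start, and the runs of Eef1a2 (7 bases) and Eif3m (11 bases) end before it. The run of Eif3m begins at the edge of the window, so it may reach further upstream. These letters are a description of the window and not a mapped start site or a terminal motif of the mRNA.

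The 2 genes for eEF1A are shown because they moved in opposite directions and because their reads must be told apart. The first 120 coding bases of each, from the GENCODE transcripts for GRCm38, differ at the 18 bases in capitals, and all 18 are at the last position of their codon.
Eef1a1, coding bases 1 to 120: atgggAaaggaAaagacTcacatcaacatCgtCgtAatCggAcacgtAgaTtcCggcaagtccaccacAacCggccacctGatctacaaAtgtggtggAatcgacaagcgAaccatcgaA
Eef1a2, coding bases 1 to 120: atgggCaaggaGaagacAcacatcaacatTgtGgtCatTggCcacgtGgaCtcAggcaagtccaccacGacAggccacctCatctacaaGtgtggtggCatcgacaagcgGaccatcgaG
Over the whole coding sequence the pair was 79.9% identical, and the longest stretch without a difference was 23 bases. Pseudogenes were the larger source of shared sequence. Of all 75-base windows of the Eef1a1 transcript, 41.7% recurred in another annotated gene, and the share was 56.5% for Eef1g and 62.9% for Eif4a1, so the counts of these genes depend on how such reads were divided. No window of Eef1a2, Eif4g1, Eif4g2, Eif4g3, Eif3a or Eif3b recurred elsewhere.

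Library totals ran from 14917174 to 47613792 estimated counts. Libraries differed in how strongly the read share rose or fell with transcript length, which is given as a length slope (the change of log2 CPM, counts scaled to the library total, per doubling of transcript length, relative to the mean of all libraries). PBS female mouse 103 and PBS male mouse 90 stood apart with slopes of -0.390 and -0.342, and the next lowest was -0.187. Mean slopes were -0.077 ± 0.164 (SD, n = 12) in PBS and 0.103 ± 0.121 (SD, n = 9) in HsTX1[R14A] libraries. The columns of the table carried 2 forms of library name, the more common held by 10 controls and 5 treated mice and the less common by 2 controls and 4 treated mice, and what the forms stand for is not given in the sources used here.

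In brains of HsTX1[R14A]-treated mice more translation factor genes were lower than higher. Of the 60 genes, 25 were lower and 9 higher at an adjusted p of at most 0.05, and 26 did not pass (edgeR's quasi-likelihood test with sex in the model, Benjamini-Hochberg adjustment over all genes tested). Over all genes tested, 31.6% were called, 16.1% lower and 15.5% higher. The share of members called lower was thus 41.7%, and the share called higher was 15%, close to the background. Without PBS mice 103 and 90, 11 members were lower and 6 higher, and leaving out single mice gave 7 (without PBS male 90) to 29 lower and 6 to 11 higher. With the library name form as a covariate 7 were lower and 5 higher, and with a trend on length and GC taken out of every library 8 were lower and 6 higher. The median log2 fold change was -0.16 over the members and -0.01 over all genes tested. The ranges of the treated and control mice overlapped for each of the 60 genes, and the lowest adjusted p was 0.0151. In bulk brain RNA, fewer cells of a type and less RNA per cell cannot be told apart.

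**Figure D1:**
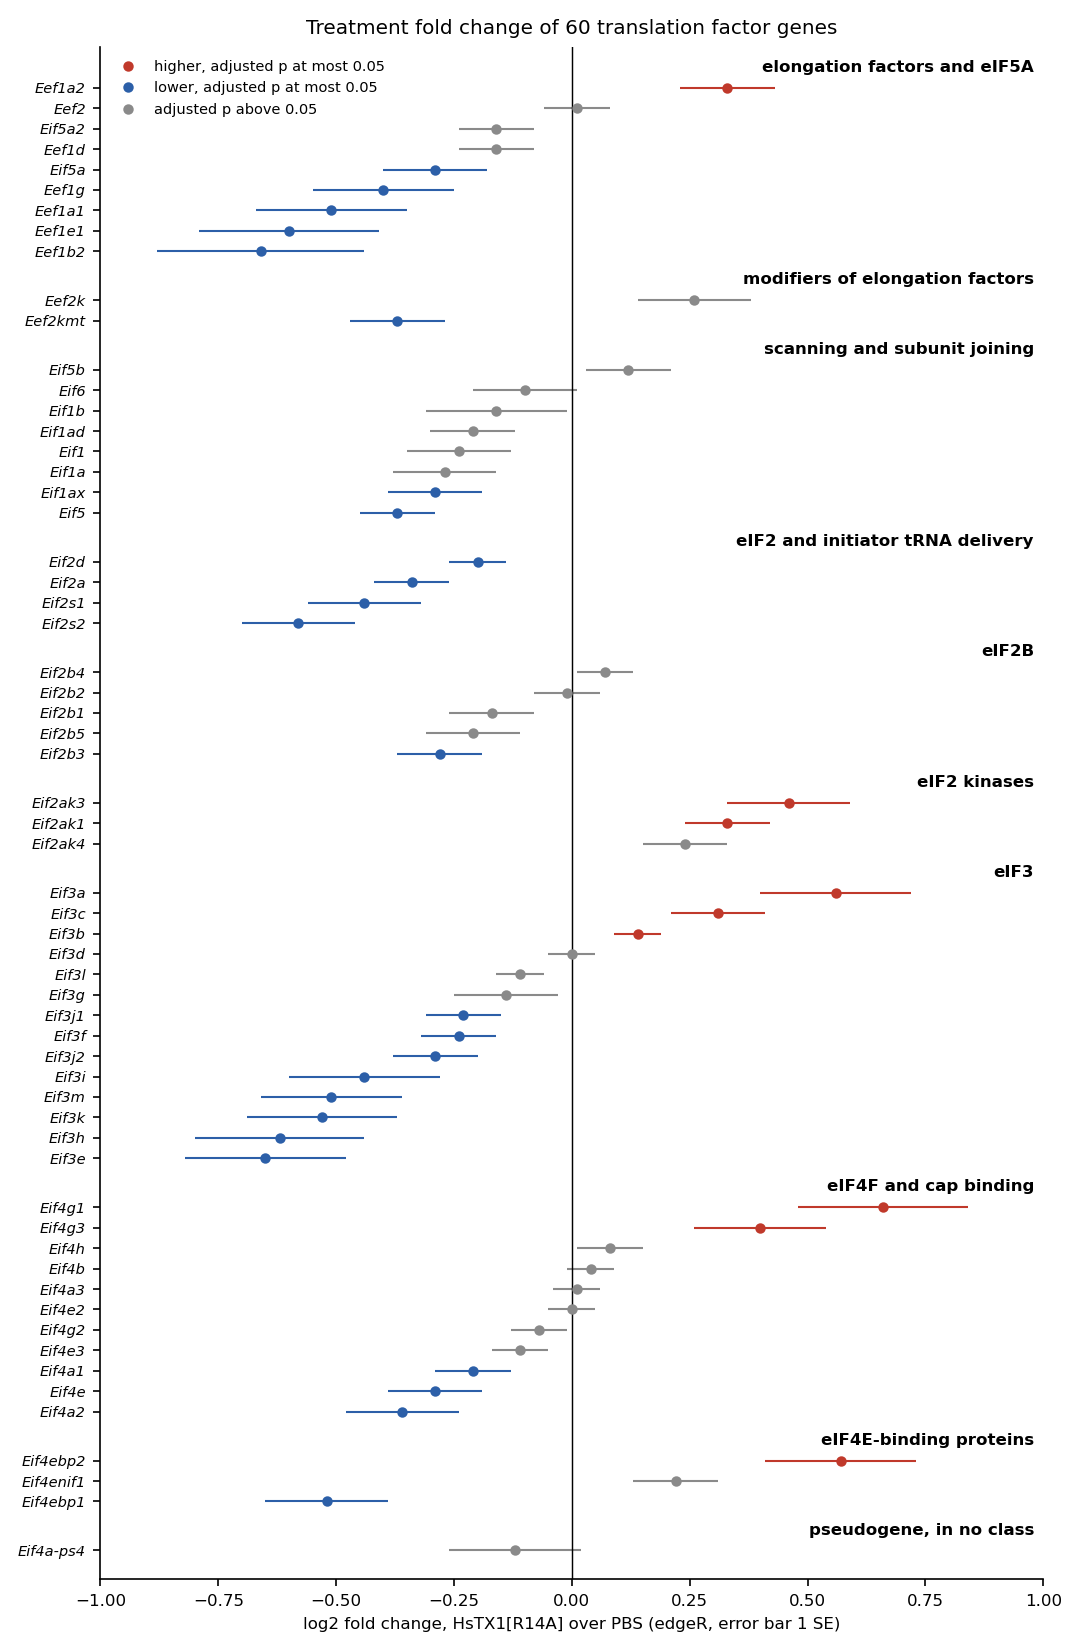
Fold change on the log2 scale, HsTX1[R14A] over PBS (horizontal axis, error bars 1 SE from edgeR) for the 60 translation factor genes, grouped by role, with genes called higher in red, called lower in blue and not called in grey. Each of the 4 genes shown of eIF2 and initiator tRNA delivery lies to the left of 0, while the 3 eIF2 kinases shown lie to the right, from 0.24 to 0.46.

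Among the 9 genes of elongation factors and eIF5A, 5 were lower, 1 was higher and 3 did not pass, with a median log2 fold change of -0.29. Over all genes tested 16.1% were called lower and 15.5% higher, the background for this and the other class counts. Eef1a1, on chromosome 9 (78478449 to 78489151, GRCm38), encodes the general eEF1A and was the most abundant member per transcript length at 1870.4 ± 552 CPM per kilobase (SD, n = 12) in PBS brains. Its CPM spanned 2349.7 to 5319 in PBS mice with a median of 3152, and 1736 to 3456 in treated mice with a median of 2328. All but 1 of the treated mice lay below the PBS median, and the 2 highest values, 5319 and 5029.6, belonged to PBS mice 103 and 90. The log2 fold change was -0.51 ± 0.16 (SE, edgeR adjusted p = 0.0256), and -0.35 without these 2 mice (adjusted p = 0.0536). The call was also lost with name form as a covariate (-0.44, adjusted p = 0.0644) and with the trend removed (-0.32, adjusted p = 0.0564).

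Eef1a2, on chromosome 2 (181147653 to 181157014), encodes the form of eEF1A that replaces eEF1A1 in mature neurons and in muscle. It ranged from 413 to 819 CPM in PBS mice (median 632) and from 634 to 954 in treated mice (median 762). Each of the 9 treated mice lay above the PBS median, and the 3 treated females were close together at 762, 777 and 748. The gene rose by a log2 fold change of 0.33 ± 0.10 (SE, edgeR adjusted p = 0.0237), the only call of a rise in its class. It was not called with name form as a covariate (0.27, adjusted p = 0.0539) or with the trend removed (0.20, adjusted p = 0.0546). Per transcript length, Eef1a1 stood 15-fold above Eef1a2 in PBS mouse 103 and 2.12-fold above it in HsTX1[R14A] male 81, the extremes of all 21 mice. The log2 ratio averaged 2.64 ± 0.64 (SD, n = 12) in PBS and 1.85 ± 0.45 (SD, n = 9) in treated brains, and the groups overlapped between 1.83 and 2.66.

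The eEF1B subunits, which recharge eEF1A with GTP, did not move alike. Eef1b2, the catalytic subunit on chromosome 1 (63176825 to 63180486), ranged from 96.9 to 323 CPM in PBS mice (median 145) and from 63.7 to 199 in treated mice (median 105). Its spread between PBS mice was the widest of the members, with an SD of 0.55 on the log2 scale against a median of 0.24 over the 60 genes. The log2 fold change was -0.66 ± 0.22 (SE, edgeR adjusted p = 0.0330), and the call was lost without mice 103 and 90 (-0.42, adjusted p = 0.0835). Eef1g, a structural subunit on chromosome 19 (8967041 to 8978479), ranged from 262 to 617 CPM in PBS and from 212 to 420.4 in treated mice, with medians of 342 and 273. It was lower by the narrowest margin of all called members (-0.40 ± 0.15, adjusted p = 0.0495) and was not called without mice 103 and 90 (-0.23, adjusted p = 0.117). Eef1d, the second exchange subunit, on chromosome 15 (75894205 to 75909556), had PBS values of 52.3 to 85.7 CPM (median 61.6) and treated values of 50.2 to 62.1 (median 59.3), and did not pass the test (-0.16 ± 0.08, adjusted p = 0.114).

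Eef2, the translocation factor on chromosome 10 (81176631 to 81182498), was the least moved of the core elongation factors. It ranged from 899 to 1203 CPM in PBS mice (median 1094) and from 940.2 to 1250.3 in treated mice (median 1092). The log2 fold change was 0.01 ± 0.07 (SE, adjusted p = 0.948), and its sign changed with the processing. The regulators of eEF2 were measured as well. Eef2k, the kinase that phosphorylates eEF2 and thereby slows elongation, had PBS values of 10.5 to 23.9 CPM (median 19.7) and treated values of 16.5 to 28.1 (median 22.6), and did not pass (0.26 ± 0.12, adjusted p = 0.107). Eef2kmt, which encodes an eEF2 lysine methyltransferase, fell from a median of 4.78 CPM (3.48 to 5.62) in PBS to 3.77 (2.67 to 4.5) in treated mice, and none of the 9 treated mice lay above the PBS median. Its log2 fold change was -0.37 ± 0.10 (SE, edgeR adjusted p = 0.0171).

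Eif5a, on chromosome 11 (69916714 to 69921958), encodes the hypusine-bearing factor that helps ribosomes past difficult peptide bonds. It ranged from 219 to 404 CPM in PBS mice (median 284) and from 209.6 to 334 in treated mice (median 237). The gene was lower by a log2 fold change of -0.29 ± 0.11 (SE, edgeR adjusted p = 0.0468), and the call did not hold without mice 103 and 90 (-0.19, adjusted p = 0.134). Per transcript length it stood at 209 ± 41.2 CPM per kilobase in PBS brains (SD, n = 12), against 16.8 ± 2.1 for its paralog Eif5a2, which did not pass (-0.16, adjusted p = 0.111). Eef1e1, which despite its symbol encodes a component of the multi-tRNA synthetase complex, was lower (-0.60, adjusted p = 0.0280, and -0.38 with adjusted p = 0.0510 without mice 103 and 90).

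**Figure D2:**
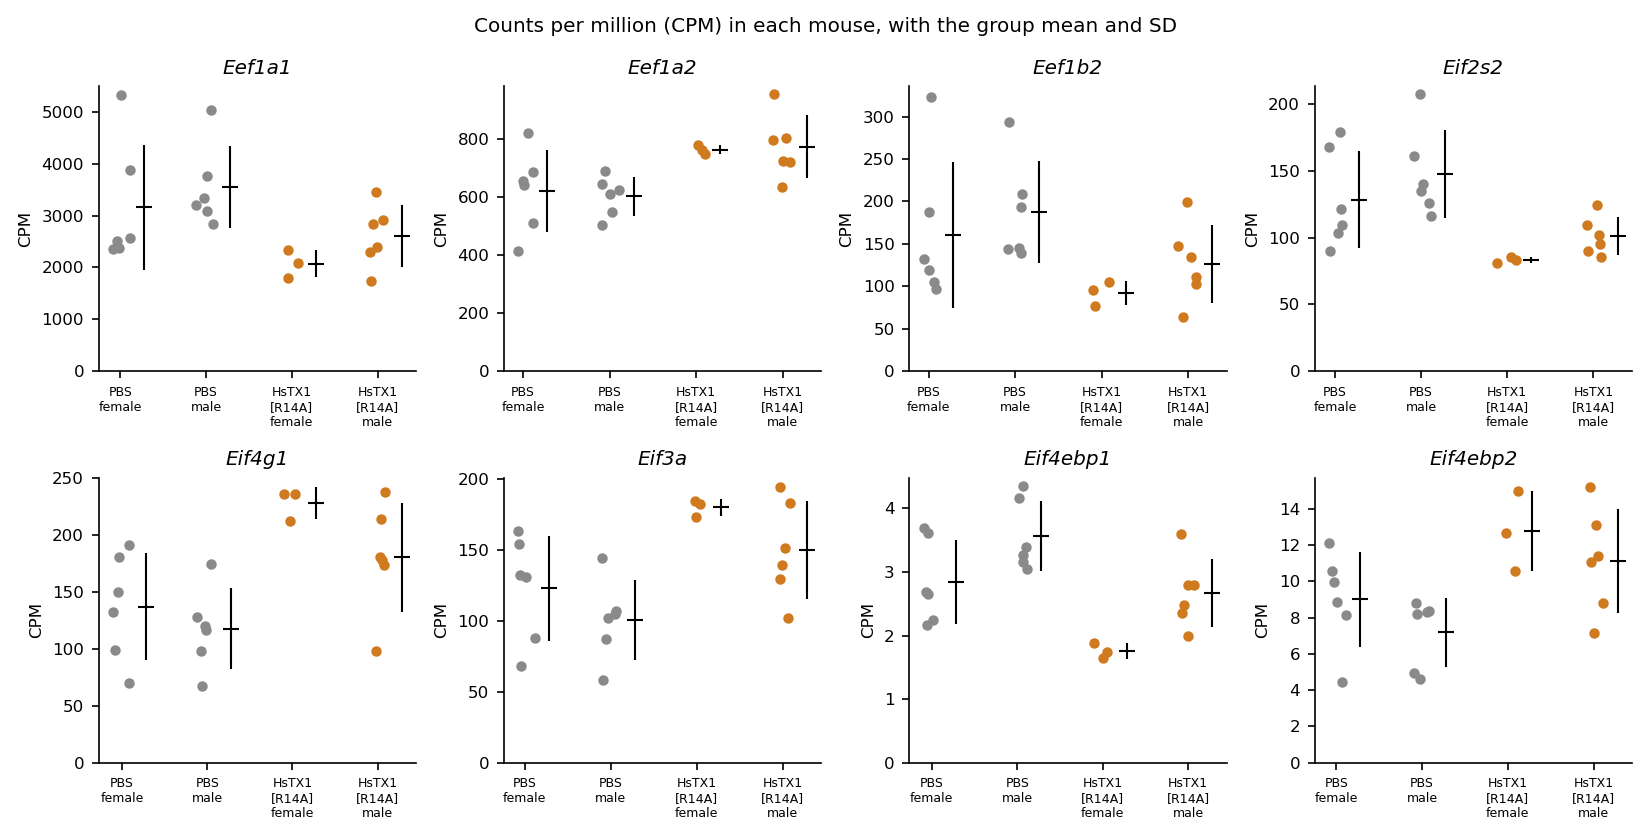
CPM (vertical axes, from 0) of 8 translation factor genes in each mouse (points) of the 4 groups, PBS in grey and HsTX1[R14A] in orange, with the group mean and SD as black bars. Eef1a1, Eef1b2, Eif2s2 and Eif4ebp1 sit lower and Eef1a2, Eif4g1, Eif3a and Eif4ebp2 sit higher in treated mice, and the ranges of treated and control mice overlap in each panel.

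Of the 4 member genes of eIF2 and initiator tRNA delivery, all 4 were lower, with a median log2 fold change of -0.39. The eIF2 subunit genes Eif2s3x and Eif2s3y were left out of the members and are not in this count. Eif2s2, the beta subunit of eIF2 on chromosome 2 (154871410 to 154892935), ranged from 89.6 to 207 CPM in PBS mice (median 130.1) and from 80.8 to 124 in treated mice (median 89.7). Not 1 treated mouse exceeded the PBS median, and the 3 treated females were at 80.8, 85.3 and 83 CPM. The fall was -0.58 ± 0.12 (SE, edgeR adjusted p = 0.0151), and -0.27 with the trend on length and GC removed (adjusted p = 0.0141). Part of its sequence is shared, since 22.4% of its 75-base windows recurred in a pseudogene. Eif2a, which encodes an alternative initiator tRNA carrier unrelated to the eIF2 subunits, went from a median of 46.7 CPM (37.4 to 63.1) to 37.1 (31.6 to 49.8), with a log2 fold change of -0.34 ± 0.08 (SE, adjusted p = 0.0161). With the trend removed it was -0.05 and not called (adjusted p = 0.420). The alpha subunit Eif2s1, the target of the eIF2 kinases, and Eif2d, which encodes another initiator tRNA carrier, were lower by -0.44 (adjusted p = 0.0198) and -0.20 (adjusted p = 0.0279), of which Eif2d was not called without mice 103 and 90 (-0.16, adjusted p = 0.0636).

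The 5 genes of eIF2B, the complex that recharges eIF2 with GTP, changed little. Eif2b3 (gamma subunit) alone was lower, with values of 10.1 to 17 CPM in PBS mice (median 12.6) and 9.25 to 13.8 in treated mice (median 9.98). Its log2 fold change was -0.28 ± 0.09 (SE, edgeR adjusted p = 0.0260, and 0.0516 with name form as a covariate). Eif2b5, the catalytic subunit, ranged from 45 to 74.1 CPM in PBS and from 39.9 to 59.7 in treated mice and did not pass (-0.21 ± 0.10, adjusted p = 0.0960). Eif2b1, Eif2b2 and Eif2b4 had log2 fold changes between -0.17 and 0.07, none of which passed.

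The eIF2 kinases among the members differed in the other direction, with 2 of 3 higher and 0 lower, against 15.5% and 16.1% of all genes tested. The kinase gene Eif2ak2 was left out of the members, so these counts do not cover it. Eif2ak1, the heme-regulated kinase on chromosome 5 (143817788 to 143904251), ranged from 31.9 to 50 CPM in PBS mice (median 40) and from 45 to 66.9 in treated mice (median 49.8). All 9 treated mice lay above the PBS median, and the log2 fold change was 0.33 ± 0.09 (SE, edgeR adjusted p = 0.0174). Eif2ak3, which encodes PERK, the kinase of endoplasmic reticulum stress, rose from a median of 13.2 CPM (9.22 to 18.9) to 19.2 (10.8 to 22.4), by 0.46 ± 0.13 (SE, adjusted p = 0.0188). Eif2ak4, which encodes the amino acid sensor GCN2, had PBS values of 11.7 to 20.1 CPM and treated values of 14.7 to 21.9 and stayed just above the threshold (0.24 ± 0.09, adjusted p = 0.0516). These transcripts measure gene expression and not the phosphorylation state of eIF2.

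Factors of scanning and subunit joining showed 2 falls among 8 genes, against 16.1% of all genes tested called lower. Eif5, the GTPase-activating protein for eIF2 on chromosome 12 (111538016 to 111546752), went from a PBS median of 328 CPM (268 to 448) to 245 (228 to 327). No treated mouse lay above the PBS median, and the 3 treated females were nearly identical at 229, 228 and 228. Its log2 fold change was -0.37 ± 0.08 (SE, edgeR adjusted p = 0.0151), the same adjusted p as Eif2s2 and the lowest among the members. Eif1ax, the X-linked form of eIF1A, ranged from 165 to 289 CPM in PBS (median 213) and from 152 to 231 in treated mice (median 161), with a log2 fold change of -0.29 ± 0.10 (SE, adjusted p = 0.0314, and 0.0870 without mice 103 and 90). Its autosomal paralog Eif1a had 18.9 ± 3.79 CPM per kilobase (SD, n = 12) in PBS brains against 41.7 ± 7.11 for Eif1ax, and did not pass (-0.27, adjusted p = 0.0617). The start codon selection factors Eif1 (-0.24) and Eif1b (-0.16), which stood at 241 ± 42.3 and 64.1 ± 18.3 CPM per kilobase in PBS brains, and the joining factor Eif5b (0.12), did not pass either.

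Within eIF3, the large complex that bridges eIF4G and the ribosome, the subunits divided. Of 14 measured genes 3 were higher and 8 lower, against 15.5% and 16.1% of all genes tested. The 3 that rose, Eif3a, Eif3b and Eif3c, encode large subunits of the complex. Eif3a, on chromosome 19 (60761117 to 60790658), ranged from 58.3 to 163 CPM in PBS mice (median 106) and from 102 to 194 in treated mice (median 173). The 3 treated females, at 184, 182 and 173 CPM, lay above every PBS mouse. The log2 fold change was 0.56 ± 0.16 (SE, edgeR adjusted p = 0.0198). Eif3c had PBS values of 93.5 to 172 CPM (median 129) and treated values of 125 to 177 (median 164), with a log2 fold change of 0.31 ± 0.10 (SE, adjusted p = 0.0284). Eif3b was tightly held, from 67.2 to 85.2 CPM in PBS (median 76.5) and from 76.4 to 87.5 in treated mice (median 83.5), and its rise of 0.14 ± 0.05 (SE, adjusted p = 0.0445) was the smallest called. Without mice 103 and 90, Eif3c (0.24, adjusted p = 0.0515) and Eif3b (0.12, adjusted p = 0.0829) were not called, and with the trend removed Eif3b was at 0.00 (adjusted p = 0.975).

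The lower eIF3 genes encode mostly the smaller subunits. Eif3e, on chromosome 15 (43250058 to 43282719), went from a PBS median of 131 CPM (77.6 to 236) to 83.9 (66.4 to 141), and 1 treated mouse exceeded the PBS median. Its log2 fold change was -0.65 ± 0.17 (SE, edgeR adjusted p = 0.0171), but -0.14 with the trend on length and GC removed, where it was not called (adjusted p = 0.105). Eif3h (-0.62), Eif3k (-0.53), Eif3m (-0.51), Eif3i (-0.44), Eif3j2 (-0.29), Eif3f (-0.24) and Eif3j1 (-0.23) were called as well, the last 4 of these only with mice 103 and 90 included. With the trend removed only Eif3h of these genes was called (-0.41, edgeR adjusted p = 0.0363). Eif3k was then at -0.24 (adjusted p = 0.0731) and Eif3m at 0.00 (adjusted p = 0.983). Eif3h was not called with name form as a covariate (-0.56, adjusted p = 0.0544). Eif3j1 and Eif3j2 are near-identical copies, with 87.4% of the windows of Eif3j2 recurring in Eif3j1, so their separate counts are uncertain. Eif3d (0.00), Eif3l (-0.11) and Eif3g (-0.14) did not pass. Per transcript length, Eif3h (161 ± 57.6 CPM per kilobase) and Eif3k (150.1 ± 48.7) were several times more abundant than Eif3a (21.8 ± 6.53) in PBS brains (SD, n = 12), although these proteins occupy 1 complex.

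Of 11 eIF4F genes 2 were higher and 3 lower, against 15.5% and 16.1% of all genes tested. The median log2 fold change of the class was 0.00. Eif4g1, the principal eIF4G scaffold on chromosome 16 (20668313 to 20692884), ranged from 67.6 to 191 CPM in PBS mice (median 124) and from 97.8 to 238 in treated mice (median 212). Treated male 93 was the lowest at 97.8, and the other 8 lay between 174 and 238, above the PBS median. The log2 fold change of 0.66 ± 0.18 (SE, edgeR adjusted p = 0.0184) was the highest of the 60 genes. Eif4g3, which encodes the second eIF4G, ranged from 87.4 to 187 CPM in PBS (median 151) and from 110.5 to 253 in treated mice (median 197), with a log2 fold change of 0.40 ± 0.14 (SE, adjusted p = 0.0386) that was not called without mice 103 and 90 (0.32, adjusted p = 0.0685) or with the trend removed (0.04, adjusted p = 0.740). Per transcript length Eif4g1 and Eif4g3 stood close together, at 22.6 ± 7.27 and 17.9 ± 3.97 CPM per kilobase in PBS brains.

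Eif4g2 (DAP5), a relative of eIF4G that lacks the eIF4E-binding region, differed from both. It was the scaffold with the highest level per transcript length (81.1 ± 4.62 CPM per kilobase in PBS) and had the smallest spread of all members between PBS mice, an SD of 0.08 on the log2 scale. PBS mice ranged from 589 to 716 CPM (median 646) and treated mice from 553 to 742 (median 610.2), and the gene did not pass (-0.07 ± 0.06, adjusted p = 0.343).

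The partners of eIF4G in the cap complex were lower. Eif4e, which encodes the cap-binding protein, went from a PBS median of 118 CPM (94.5 to 174) to 105 (88.8 to 137), a log2 fold change of -0.29 ± 0.10 (SE, edgeR adjusted p = 0.0337). Eif4a2, the helicase form enriched in brain, went from 631 CPM (500.3 to 933) to 488 (389.5 to 682), with a log2 fold change of -0.36 ± 0.12 (SE, adjusted p = 0.0304). Eif4a1, the general form, went from 232 CPM (189 to 285) to 193 (176 to 245), with a log2 fold change of -0.21 ± 0.08 (SE, adjusted p = 0.0432), and 62.9% of its windows are shared with pseudogenes, Eif4a-ps4 among them. In PBS brains Eif4a2 stood at 244 ± 53.3 CPM per kilobase and Eif4a1 at 131 ± 14.6. None of these 3 falls was called without mice 103 and 90, where the log2 fold changes were -0.19, -0.24 and -0.15, nor with the trend removed, where they were -0.25, -0.11 and 0.00. The helicase cofactors Eif4b (0.04) and Eif4h (0.08) and the relatives Eif4e2 (0.00), Eif4e3 (-0.11) and Eif4a3 (0.01), the last a subunit of the exon junction complex, did not pass.

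The eIF4E-binding proteins, which keep eIF4E from eIF4G until mTOR phosphorylates them, moved in opposite directions at low levels. Eif4ebp1 went from a PBS median of 3.21 CPM (2.16 to 4.35) to 2.35 (1.65 to 3.59), and the treated females at 1.74, 1.65 and 1.89 lay below every PBS mouse. Its log2 fold change was -0.52 ± 0.13 (SE, edgeR adjusted p = 0.0161). Eif4ebp2 went from 8.35 CPM (4.47 to 12.1) to 11.4 (7.18 to 15.2), a log2 fold change of 0.57 ± 0.16 (SE, adjusted p = 0.0208). Corrected for transcript length, the levels of both were alike in PBS brains, at 1.6 ± 0.347 and 1.4 ± 0.411 CPM per kilobase. Eif4enif1, which encodes the eIF4E transporter, did not pass (0.22, adjusted p = 0.0638).

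Taking the 7 core elongation factors (Eef1a1, Eef1a2, Eef1b2, Eef1d, Eef1g, Eef2 and Eif5a) against the 6 initiation scaffolds (Eif4g1, Eif4g2, Eif4g3, Eif3a, Eif3b and Eif3c), the medians of the log2 fold changes were -0.29 and 0.36, a difference of 0.64. Elongation factor transcripts measure 1437 to 3089 bases (median 1939) and scaffold transcripts 2945 to 8134 (median 5382). For each mouse, the mean log2 CPM of the elongation factors was subtracted from that of the scaffolds. This difference ran from -2.30 to -0.86 in PBS mice (-1.48 ± 0.48, SD, n = 12) and from -1.68 to -0.54 in treated mice (-0.96 ± 0.37, SD, n = 9). Treated females were at -0.54, -0.73 and -0.85, each above every PBS mouse, while the treated males spanned -1.68 to -0.56. Among libraries with the more common name form the means were -1.56 ± 0.49 (n = 10) and -1.02 ± 0.39 (n = 5), and with the other form -1.08 ± 0.10 (n = 2) and -0.88 ± 0.38 (n = 4).

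**Figure D3:**
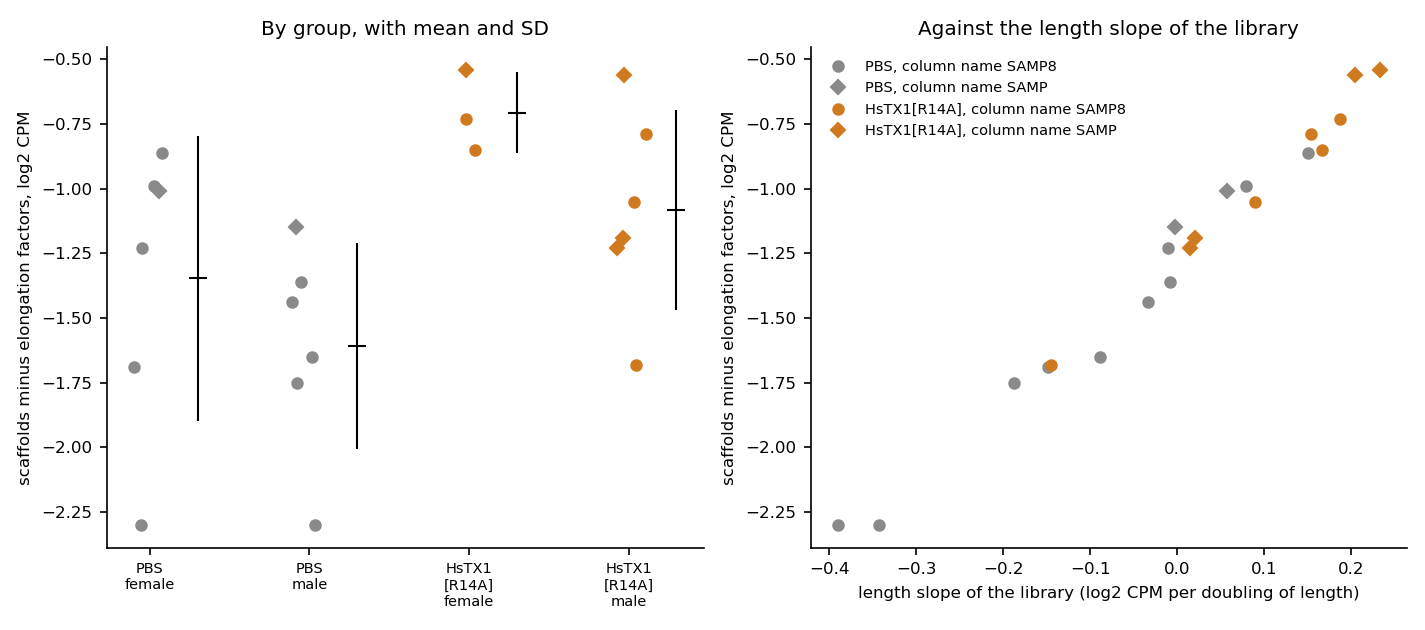
Mean log2 CPM of 6 initiation scaffolds minus that of 7 core elongation factors in each mouse (vertical axes), by group with the mean and SD (left) and against the length slope of the library over all genes (right), with symbols for the 2 forms of column name. PBS mice 103 and 90 share the lowest value, -2.30, at the lowest length slopes, and treated mice 98 and 81 have the highest values, -0.54 and -0.56, at the highest slopes, 0.233 and 0.204.

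The difference moved with the length slope of the whole library. Part of this is built in, because the scaffolds have the longer transcripts and the slope comes from the same log2 CPM. The lowest differences, -2.30 in PBS mice 103 and 90, came with the lowest slopes, and the highest, -0.54 in treated female 98, with the highest slope of 0.233. Treated male 93, with a slope of -0.145, had a difference of -1.68, next to -1.69 in PBS female 73 at a slope of -0.148. With the slope as a covariate the median difference between the lists was -0.01, and after a trend on length and on GC was taken out of every library it was 0.36. The part of the slope in the fold changes was not tested, and a slope that itself follows treatment cannot be told apart from it by these fits.

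Across genes, the members' log2 fold changes followed transcript length to about the degree seen in the whole table (Pearson r = 0.54 and Spearman rho = 0.49 over 60 members, 0.51 and 0.53 over 16224 genes, as a description, since genes share libraries). Of the 20 members with transcripts under 2000 bases, 11 were lower and 0 higher, against 30.8% and 1.68% of all genes of that length, and the median log2 fold change was -0.27 against -0.26. Of the 25 with 2000 to under 4000 bases, 10 were lower and 3 higher, against 14.9% and 12%, with medians of -0.20 and -0.01. Of the 15 with 4000 bases or more, 6 were higher and 4 lower, against 31% and 5.67%, with medians of 0.24 and 0.19.

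**Figure D4:**
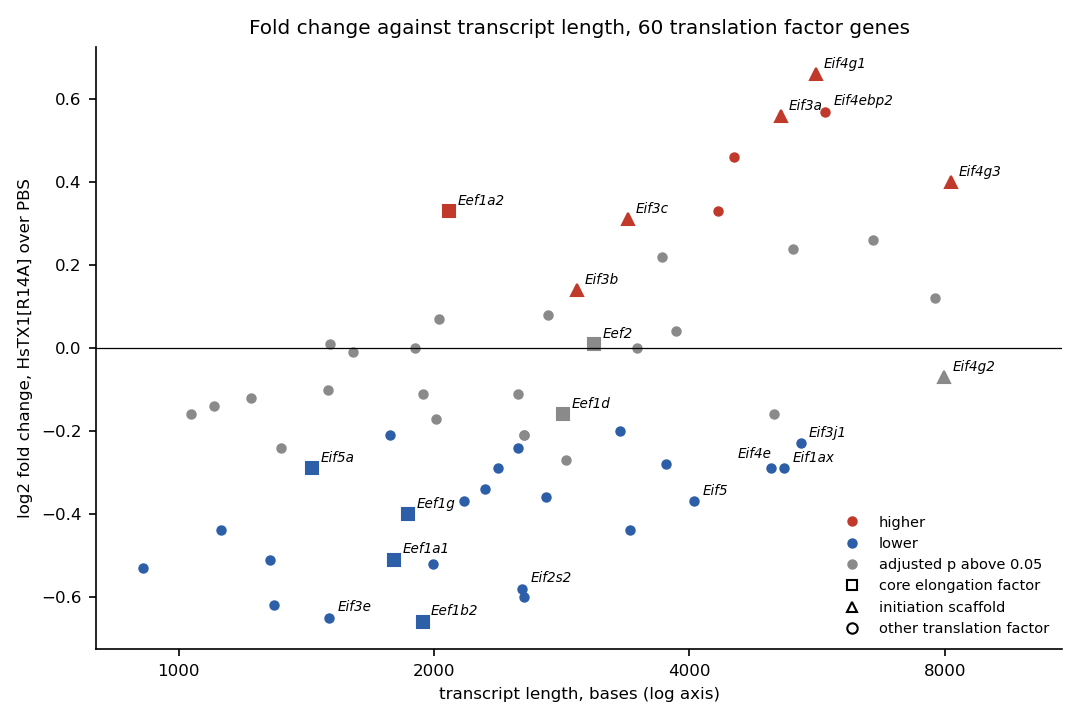
Fold change on the log2 scale, HsTX1[R14A] over PBS (vertical axis) against transcript length in bases (horizontal log axis) for the 60 translation factor genes, with squares for core elongation factors, triangles for initiation scaffolds and colours for the call. No member under 2000 bases was called higher, Eef1a2 (2084 bases) is the shortest called higher, and Eif5, Eif4e, Eif1ax and Eif3j1 are the 4 called lower at 4000 bases or more.

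The exceptions to length fell along base composition. The 4 long members that were lower, Eif5, Eif4e, Eif1ax and Eif3j1, have GC contents of 41.7%, 40.5%, 39.7% and 42.5%, while Eef1a2, the shortest member called higher, has 60.6%, the highest of the 60. Among members of 4000 bases or more with a GC content of 45% or more, 5 of 7 were higher and 0 lower, against 39.9% and 1.63% of all such genes. Among the 8 with less GC, 4 were lower and 1, Eif3a, was higher, against 14% and 12.4%. In the middle length class, 6 of the 7 members under 45% GC were lower (33.8% of all such genes) and 0 higher (2.09%), among them Eif2s1, Eif2s2, Eif2a and Eif4a2. Of the 18 with more GC, 4 were lower (8.31%) and 3 higher (15.4%). Of the 18 short members with 45% GC or more, 9 were lower (27.5%) and 0 higher (1.98%), while Eif3e and Eif3m, the 2 short ones with less GC, were both lower (45.1%) and 0 were higher (0.369%).

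Fold changes in females and males mostly had the same sign. All 34 called members agreed in sign between the sexes fitted alone, and 53 of the 60 members did. The 34 were called from the same mice with both sexes together, which favours agreement. The share of all genes that agreed was not counted. Fitted alone, 0 members were called in females (15 at an unadjusted p under 0.05) and 0 in males (25), and 0% of all genes were called in each. The treatment by sex interaction, tested with edgeR, was called for 0 members and 0% of genes, with 0 members and 270 genes at an unadjusted p under 0.05. A p that misses the threshold with 3 treated females does not show that the sexes responded alike. Between sexes, 0 members were called, against 0.0552% of genes (4 higher in females, 0.0245%, and 5 lower, 0.0307%), with 8 members at an unadjusted p under 0.05. DESeq2 and limma/voom also called 0 members for sex and for the interaction.

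Genes that act beside these factors were listed by pathway. Of 9 genes of termination and ribosome recycling, 3 were lower, 0 higher and 6 not called, against 16.1% lower and 15.5% higher over all genes tested. Denr, which encodes a partner in recycling and reinitiation, went from 74.5 ± 13.9 CPM (SD, n = 12) to 55 ± 10.7 (n = 9), with a log2 fold change of -0.48 ± 0.11 (SE, edgeR adjusted p = 0.0151), and Mcts2, related to its binding partner, was lower by -0.42 (adjusted p = 0.0208). Of 5 poly(A)-binding proteins and partners, 3 were lower and 0 higher, including Paip1 (-0.37, adjusted p = 0.0163) and Paip2 (-0.38, adjusted p = 0.0232), whose proteins bind the poly(A)-binding protein.

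Of 17 genes of mTOR and the kinases to translation, 7 were higher, 1 lower and 9 not called, with a median log2 fold change of 0.17. Their median transcript measured 5720.0 bases, and 31% of all genes with transcripts of 4000 bases or more were called higher. Mtor, the kinase that phosphorylates the eIF4E-binding proteins, went from 56.3 ± 18.8 CPM to 85.1 ± 22.3, a log2 fold change of 0.64 ± 0.18 (SE, edgeR adjusted p = 0.0195), and Tsc1, which encodes a restraint on mTOR, was higher by 0.46 (adjusted p = 0.0239). Of 22 cytosolic aminoacyl-tRNA synthetases found, 7 were higher, 1 lower and 14 not called. Iars (0.42, adjusted p = 0.0172) and Wars (0.31, adjusted p = 0.0174) had the smallest p. Over all genes tested 15.5% were called higher and 16.1% lower, the background also for the lists that follow. Of 12 genes of the integrated stress response, the program downstream of the eIF2 kinases, 2 were higher and 3 lower with a median of -0.04, among them the adaptor Nck1 (-0.30, adjusted p = 0.0280) and Sesn2 (0.35, adjusted p = 0.0322). The 9 listed symbols of mitochondrial translation factors matched 10 gene entries, of which 2 were higher and 1 lower. Tufm, the mitochondrial counterpart of eEF1A, rose by 0.25 (adjusted p = 0.0180) while the release factor gene Mtrf1 fell by 0.61 on the log2 scale (adjusted p = 0.0154).

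Markers of brain cell types were measured beside these genes. Of 10 oligodendrocyte markers 6 were lower and 0 higher, and their summed level ran from 4624 to 7041 CPM in PBS and from 3512 to 5151 in treated mice. Neuron markers (2 higher, 0 lower of 10) summed to 4903 to 7648 and 5799.6 to 8820.3 CPM, astrocyte markers (1 and 4 of 10) to 3411 to 5138 and 3430.4 to 5186, microglia markers (0 and 3 of 10) to 432 to 621 and 367 to 544, and endothelial markers (2 and 0 of 10) to 80.4 to 147 and 95.5 to 165. Choroid plexus (10) and red blood cell genes (5) had no calls. Over all genes tested 16.1% were called lower and 15.5% higher, so 2 calls among 10 markers lie near the background. Median transcript length of the marker lists ran from 699 bases (red blood cells) to 4149 bases (astrocytes), and calls differed with length over all genes. Of all these markers, 0 stayed under 3 counts in every library. The part of cell type in the translation factor results was not tested.

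Of the 34 calls, 10 were kept under each of the 10 alternative fits that called any gene and in each of the 21 fits that left out 1 mouse. The 5 that remained lower were Eif2s1, Eif2s2, Eif5, Eif4ebp1 and Eef2kmt, and the 5 that remained higher were Eif4g1, Eif3a, Eif2ak1, Eif2ak3 and Eif4ebp2. Of the 5 called core elongation factors 0 were among them, and of the 5 called scaffolds 2 were. With the trend on length and GC removed, these 10 log2 fold changes were -0.28, -0.27, -0.28, -0.39 and -0.41 for the lower and 0.38, 0.52, 0.22, 0.30 and 0.32 for the higher genes, in the order named. In 3 further alternatives, namely either name form alone or the length slope as a covariate, no gene of the table was called. The 10 calls were therefore not kept in those 3. With the slope as covariate the lower genes were at -0.08, -0.19, -0.16, -0.22 and -0.19, in the order named. The higher genes were then at 0.11, 0.08, 0.12, 0.08 and 0.10. How many of all called genes were kept by the same fits was not counted, so 10 of 34 has no background beside it.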

How the data were processed

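RNA was extracted from the whole brain of 21 SAMP8 mice, libraries were sequenced on an MGI instrument, and per the labels and methods the authors aligned reads to GRCm38 with STAR and quantified genes with Salmon. They deposited estimated counts, not normalized, for 16318 genes. Columns with the authors' own comparison (log2 fold change, p-value, FDR) and 53 other per-sample columns (37 of CPM, 16 of counts of other libraries) were not used here. Groups and sex came from the sample titles. Of the estimated counts, 90.496% were whole to a tolerance of 0.01, and rounding to whole counts preceded each test.

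Genes passing filterByExpr over the 4 groups received TMM scaling and entered the quasi-likelihood F-test of edgeR 4.0.16 (R 4.3.3) with sex and treatment as terms, followed by the interaction and each sex alone, with Benjamini-Hochberg adjustment over all genes tested and a threshold of 0.05. CPM were TMM-scaled, and log2 CPM carry a prior count of 2. Transcript length was that of the longest protein-coding transcript in GENCODE for GRCm38, or of the longest transcript where none was coding (found for 16224 tested genes). GC content was that of the longest transcript of any type, so length and GC can come from different transcripts of a gene. Of the members, 34 overlap another annotated gene. Mouse numbers are unique to each mouse. Simulation of 200 2-fold changes among 16301 genes gave 176 recovered and 11 false calls. Its counts were drawn for each gene separately, without the length slope or trends of these libraries, and its changes were larger than any member's. It therefore checks the fitting steps and does not measure how reliable the calls reported here are. Precision is set by the spread between mice at these totals.

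The members and gene lists were chosen with earlier results of these data known. Named genes were the core elongation factors, scaffolds, eIF2 kinases, Eif4e, Eif4a1, Eif4a2, Eif4ebp1, Eif4ebp2, the 2 members of each class and the 2 genes of each pathway list with the smallest treatment p, and paralogs as levels per length. Other members are given more briefly, by fold change and for some an adjusted p. Of the aminoacyl-tRNA synthetase, eIF3, eIF4F and similar lists, some listed symbols were not found in the table. Alternatives were DESeq2 1.42.0, limma 3.58.1 with voom, scaling by relative log expression (RLE), either no low-count filter or a minimum of 10 counts in each mouse, a model without sex, name form as covariate or each form alone, length slope as covariate, removal of a loess trend (span 0.5) on length and GC content, sample quality weights, each mouse left out and, added after seeing the data, leaving out PBS mice 103 and 90.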

Additional observations from a re-analysis of the deposited data

Results flagged for a closer look

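In each group of 6 mice, the highest and lowest values of the 30 named members and of the difference between scaffolds and elongation factors were compared with the rest by Dixon's ratio, the gap to the nearest mouse over the group's range on the log2 scale (critical value 0.625 for 6 mice). Of 93 such tests 6 exceeded it, and chance flags about 1 in 20 groups. Of these, 3 belonged to PBS male mouse 90, which had 541 CPM of Eef1g (312 to 379.8 in the other PBS males), 285 CPM of Eif4a1 (228 to 239) and 448 CPM of Eif5 (314 to 349.6). PBS female mouse 103 had 17 CPM of Eif2b3 (10.1 to 11.9 in the other PBS females). HsTX1[R14A] male mouse 93 had 97.8 CPM of Eif4g1 (174 to 238 in the other treated males), and HsTX1[R14A] male mouse 81 had 66.9 CPM of Eif2ak1 (45 to 50.4). Mice 90, 103 and 93 had length slopes of -0.342, -0.390 and -0.145, each the lowest of its treatment and sex, and mouse 81 had the highest slope of the treated males, 0.204. The interaction test called no member, which with 3 treated females does not show that the sexes responded alike.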

How the results depend on the processing

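No paired analysis was possible because mouse numbers are not shared between groups. In the alternatives, the 5144 calls over all genes became 2887 without PBS mice 103 and 90 (added after seeing the data), 1999 with name form as covariate, 2984 without a sex term and 2517 with the trend on length and GC content removed. The 25 lower members became 11, 7, 13 and 8 in the same order, and the 9 higher members became 5 with name form as covariate. With the length slope as covariate, or in either name form alone, 0 genes and 0 members were called in either direction, although 1874 genes (slope), 5797 (more common form, 15 mice) and 532 (less common form, 6 mice) had an unadjusted p under 0.05. Among members these were 2 higher and 4 lower, 9 higher and 22 lower, and 0 in either direction. The cause was not tested, and the fits of either form alone also had fewer mice. With the slope as covariate the scaffold minus elongation factor difference reversed to -0.01, and 33 of the 60 members were positive, against 19 as reported. Among the 30 named members the log2 fold changes then reversed for Eef1b2 (0.05), Eef1d (0.06), Eef1g (0.08), Eif5a (0.03), Eif2b5 (0.05), Eef2 (-0.06), Eef2k (-0.10), Eif2ak4 (-0.03) and Eif4g3 (-0.04), and of the other called members for Eef1e1 (0.02) and Eif3i (0.07). Among the named members they reversed in the less common form alone for Eef2 (-0.06), Eif3b (-0.01), Eif3c (-0.02) and Eif4g2 (0.02), and with the trend removed for Eef2 (-0.18) and Eef2k (-0.01).

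Leaving out 1 mouse at a time gave 2289 to 6614 genes called, 6 to 11 members higher, 7 to 29 lower, a scaffold minus elongation factor difference of 0.56 to 0.74, and 0 members for sex or interaction. Without PBS male 90 the counts were 2289 genes, 6 higher and 7 lower members. Lower members numbered 16 or fewer also without PBS mouse 73 or 101 (16 each) or HsTX1[R14A] mouse 71 (13), 72 (16), 81 (13), 88 (11) or 98 (11), and genes called fell to 3332 without mouse 71, 3005 without 98, 3263 without 81 and 3121 without 88. Eef2 ranged from -0.02 to 0.03. DESeq2, limma/voom, RLE scaling, sample quality weights and both filters called 9 to 11 members higher and 23 to 25 lower. Whole-brain RNA, 3 treated females and name forms that were unequally divided between treatments limit these comparisons.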
